A study of Saccharomyces cerevisiae with 12 samples.

Results

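The transcriptome of *Saccharomyces cerevisiae* cells without the transcription factor Com2 was compared with that of their parental strain in the absence of sulfur dioxide. The strains were the BY4741 *com2*Δ deletion mutant and BY4741 itself, a haploid laboratory strain with the genotype MATa his3Δ1 leu2Δ0 met15Δ0 ura3Δ0, which both strains share. Both were kept for 60 min in the minimal medium MMB at pH 3.5 without SO2. According to the methods, this medium was supplemented with methionine, leucine, histidine and uracil, and the mutant came from the Euroscarf collection, so that 1 deletion strain stands for the loss of the gene and any other difference between the strains cannot be told apart from it. Of the 12 arrays of the series, the 6 chosen here by their labels were 3 biological replicates of *com2*Δ cells and 3 of wild-type cells. The other 6 held the same strains after 60 min with 0.5 mM SO2 and were used for a comparison at the end. Each array, an Affymetrix Yeast Genome 2.0 GeneChip, gave 1 intensity on a linear scale for each of 5716 probe sets, reduced to 5667 features with 1 probe set per gene. Array intensities compare a gene between samples and not different genes with each other, and they give RNA per amount of total RNA loaded, so that fewer cells with an RNA and less of it per cell cannot be told apart.

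Com2 is a zinc finger protein of the C2H2 class and is related to Msn2 and Msn4, the general stress regulators that bind the stress response element of yeast promoters. Cells of this genotype cannot make the enzyme that joins sulfide to O-acetylhomoserine (Met17, also called Met15), and they live on the methionine of the medium. From methionine they make S-adenosylmethionine, the methyl donor of the cell, which is used in large part to methylate phosphatidylethanolamine to phosphatidylcholine. Yeast takes up inorganic sulfate through the permeases Sul1 and Sul2 and responds to lack of phosphate through Pho4, which turns on secreted acid phosphatases and phosphate transporters of high affinity.

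The *COM2* signal matched the labels on every array. It was 9.35, 10.3 and 11.96 in *com2*Δ cells and 3558, 3679.9 and 2858 in wild-type cells, a ratio of 319 between wild-type and *com2*Δ geometric means. Its log2 fold change was −8.32 ± 0.12 (adjusted p = 2.6e-12), where the value after ± is the standard error of the fit, here and below. The signals of *MET17*, *LEU2* and *URA3*, deleted in both strains, stayed at or below 152 on all arrays and give a measure of background. With *COM2* under this value in the mutant, its fold change is a ratio of signals and not of RNA. The a-cell pheromone genes were bright in both strains, and *MF(ALPHA)1*, the α-factor gene of the other mating type, measured 32.6, 27.4 and 19.6 in *com2*Δ cells and 32.8, 30.2 and 20.96 in wild-type cells. The α-cell receptor gene *STE3* was not at background, at 696, 708 and 873 in *com2*Δ cells and 607, 705 and 841 in wild-type cells. *HIS3* gave signal in both strains (6674, 7264 and 9099 in *com2*Δ cells and 5517, 6263 and 9217 in wild-type cells), and its allele his3Δ1 removes only a part of the gene, so that it checks nothing.

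A single array stood apart in each strain. The third *com2*Δ array differed from its replicates by a median of 0.20 and 0.16 on the log2 scale, against 0.12 between the other two. The third wild-type array differed by 0.27 and 0.23, against 0.10 between the other two. On this wild-type array all 17 measured genes of the G1/S transition were above the mean of the other wild-type arrays (median 0.97 on the log2 scale). On the third *com2*Δ array 13 of 17 were above the mean of the other *com2*Δ arrays, with a median of 0.10. For the genes described below, the third wild-type array lay on the side of the *com2*Δ arrays in 14 of the 20 that were called higher and 15 of the 20 that were called lower.

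Few genes were called between the strains. With limma, a feature was called when 3 limits were met, a difference of at least 2-fold between the group means, a p-value below 0.05 and a false discovery rate (Benjamini-Hochberg, over all features) below 10%. This called 20 features higher in *com2*Δ cells (0.353% of those tested) and 20 lower (0.353%), all of them named genes and *COM2* among the lower. None of the 40 had overlapping arrays between the strains. Over all features, 7.39% had no overlap with *com2*Δ higher and 10.1% with *com2*Δ lower. The median log2 fold change was 1.47 for the higher genes and −1.21 for the lower ones, against −0.02 over all features, where the quartiles were −0.15 and 0.11. The strains were under 1.5-fold apart at 96.0% of features. Without the fold limit, 50 features (0.882%) were higher and 62 (1.09%) were lower at the same false discovery rate.

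How dim the called genes were depended on the arrays used to rank them. By the mean over all 12 arrays, 19 of the 20 lower genes lay in the dimmest 25% of all features, with *GDH2* the exception, against 6 of the 20 higher genes, but a gene's own low arrays enter that mean, and *COM2* counts among the 19. By the 3 *com2*Δ control arrays alone 17 lower and 7 higher genes lay in the dimmest 25%, and by the 3 wild-type control arrays alone 11 lower and 13 higher genes. The median over the lower genes of their mean intensity was 208 in *com2*Δ cells and 717 in wild-type cells, while for the higher genes it was 1453 in *com2*Δ cells and 532 in wild-type cells. In *com2*Δ cells 8 lower genes averaged under 152, the highest signal of the deleted genes (*COM2*, *POX1*, YLR031W, *DAL80*, *BIO5*, YLR030W, YNL277W-A and *IRC15*), and so did 2 of the higher genes in wild-type cells (YIR042C and *COS12*). For these the fold change is a ratio to a signal that may hold little RNA. For *DAL80*, YLR030W, YNL277W-A, YIR042C and *COS12* the means of both strains were under 152, so that both sides of the ratio may hold little RNA. Leaving out 1 array at a time kept 13 higher and 8 lower genes in all 6 fits. Calls lost numbered 6, 13 and 11 without *com2*Δ replicates 1, 2 and 3, and 15, 9 and 1 without wild-type replicates 1, 2 and 3. Without the third wild-type array, 37 genes were called higher and 37 lower.

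**Figure D1:**
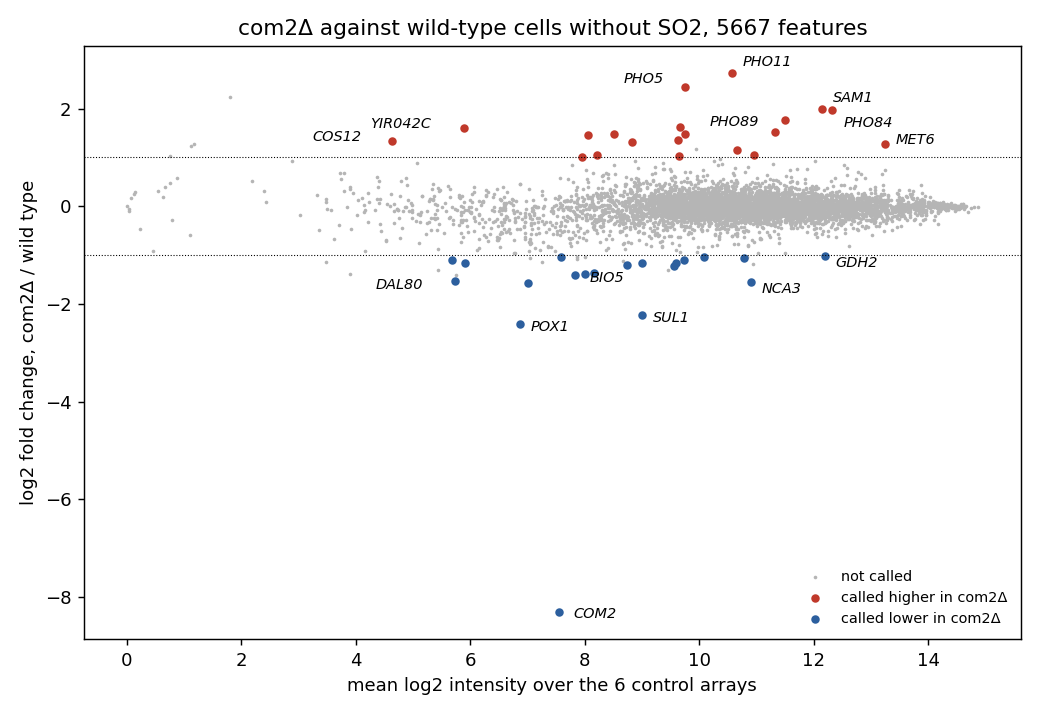
Each point is 1 of 5667 features, with its mean log2 intensity over the 6 control arrays on the x axis and the log2 fold change of *com2*Δ over wild-type cells on the y axis. Red points are the 20 genes called higher and blue points the 20 called lower; dotted lines mark 2-fold. *COM2* lies at −8.32, and apart from it the called genes run from −2.41 for *POX1* to 2.73 for *PHO11*.

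Genes of the phosphate regulon held the largest increases. The gene lists used here and below were chosen with earlier results of these data known. Of 15 measured members 5 were called higher in *com2*Δ cells, against 0.353% of all features, and none lower. A positive log2 fold change was seen in 13 of the 15, against 2568 of all 5667 features, with a median of 0.26. *PHO11*, a secreted acid phosphatase, measured 4289, 4310.0 and 3292 in *com2*Δ cells and 564, 565 and 653 in wild-type cells, a log2 fold change of 2.73 ± 0.18 (adjusted p = 1.1e-05). The probe set may also read *PHO12*, a nearly identical gene that was not measured on its own. *PHO5*, the main secreted acid phosphatase, measured 2109, 2131 and 1854 in *com2*Δ cells and 432, 353 and 333 in wild-type cells, with 2.45 ± 0.14 (adjusted p = 4.9e-06). The lowest *com2*Δ value of either phosphatase was thus several times the highest wild-type value. For *PHO5*, *SAM1*, *SAM2*, *MET6*, *MET13*, *OPT1*, *PSD1*, *HO*, *YHP1*, *USB1*, *MOG1* and *WSC4*, all called higher here, the text of the study gives the opposite direction; here the direction follows the labels of the arrays, which the *COM2* signal fits.

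Both phosphate transporters of high affinity were higher too. *PHO84*, which carries phosphate together with protons, measured 11948, 9427 and 9259 in *com2*Δ cells and 3528, 2323 and 2138 in wild-type cells, a log2 fold change of 1.96 ± 0.20 (adjusted p = 5.6e-04). *PHO89*, which uses sodium, measured 6689.9, 4840.4 and 4727 in *com2*Δ cells and 1710.1, 1426 and 1605 in wild-type cells, with 1.76 ± 0.20 (adjusted p = 0.0014). The wild-type values of both lay well below all *com2*Δ values. *PHM6*, a phosphate-responsive gene of unknown function, measured 837, 501 and 534 in *com2*Δ cells and 295, 210.3 and 168 in wild-type cells (1.47 ± 0.24, adjusted p = 0.013). *VTC3*, a subunit of the vacuolar polyphosphate polymerase, passed the false discovery rate and not the fold limit, at 0.76 ± 0.13 (adjusted p = 0.016), and its partner genes *VTC1*, *VTC4* and *VTC2* were not called, at 0.26, 0.41 and 0.05. *PHO81*, the inhibitor of the Pho80-Pho85 kinase, was not called (0.09 ± 0.17, adjusted p = 0.89), nor was *SPL2* (0.16 ± 0.12, adjusted p = 0.64), which represses phosphate transport of low affinity, or *GIT1* (0.06 ± 0.17, adjusted p = 0.94), a transporter of glycerophosphoinositol. None of the 8 regulators and low-affinity transporters measured was called, and *PHO4* itself was at 0.18 ± 0.24 (adjusted p = 0.81). All 5 calls remained without any single control array, and the third wild-type array was below the mean of the other wild-type arrays for 12 of the 15 regulon genes.

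Enzymes that make and use methionine and S-adenosylmethionine were the second group among the higher genes. Of 17 measured members of the list 4 were called higher (0.353% of all features) and none lower, with a median of 0.22. *SAM1* and *SAM2* encode the S-adenosylmethionine synthetases. *SAM1* measured 9405, 8745 and 9076 in *com2*Δ cells and 1588, 1840.3 and 4071 in wild-type cells, a log2 fold change of 1.99 ± 0.29 (adjusted p = 0.0056). *SAM2* measured 4478, 4309 and 4272 in *com2*Δ cells and 1313, 1259.5 and 2134 in wild-type cells, with 1.52 ± 0.22 (adjusted p = 0.0065). Their sequences are similar, and the probe sets of each may read the other to an extent that was not tested. In both genes the third wild-type array was the highest of its strain and still below every *com2*Δ array. *MET6*, the methionine synthase, measured 16218, 14965 and 14163 in *com2*Δ cells and 5406, 5640.2 and 8063 in wild-type cells, with 1.27 ± 0.14 (adjusted p = 9.4e-04), and was among the brightest genes called. *MET13*, the methylenetetrahydrofolate reductase that supplies its methyl group, measured 1192, 1784 and 1419 in *com2*Δ cells and 270.2, 545 and 938 in wild-type cells, with 1.48 ± 0.34 (adjusted p = 0.072). The wild-type arrays of *MET13* were widely spread, and its call was lost without each of the *com2*Δ replicates 1, 2 and 3 and of the wild-type replicates 1 and 2 (adjusted p = 0.101 to 0.27). *SAH1*, which breaks down S-adenosylhomocysteine after methyl transfer, was at 0.43 ± 0.10 (adjusted p = 0.072), under the fold limit. For 13 of the 17 genes the third wild-type array was above its replicates.

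Among 6 measured transporters of organic sulfur 1 was called higher (0.353% of all features) and 5 were positive, with a median of 0.66. *OPT1*, the plasma membrane transporter of glutathione and oligopeptides, measured 1469, 1312 and 1056 in *com2*Δ cells and 426, 541 and 533 in wild-type cells, a log2 fold change of 1.35 ± 0.19 (adjusted p = 0.0054). *MUP1*, the methionine permease of high affinity, measured 5506, 6056 and 5608 in *com2*Δ cells and 2469, 3314 and 3344 in wild-type cells, and at 0.92 ± 0.13 (adjusted p = 0.0056) it fell just short of 2-fold. *MUP3*, the permease of low affinity, and *MMP1*, the permease of S-methylmethionine, were not called, at 0.68 ± 0.18 (adjusted p = 0.11) and 0.64 ± 0.20 (adjusted p = 0.17). No member of the Met4 complex, the activator of sulfur genes, was called in the 6 measured (median 0.08), and *MET32* had the lowest value, −0.58 ± 0.16 (adjusted p = 0.13).

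Several genes of phospholipid synthesis were higher by less than 2-fold. Of 18 measured members of the list of inositol and phospholipid genes, 16 were positive, with a median of 0.45. The false discovery rate was passed by 5, all upward, against 0.882% of all features. Only *PSD1*, the mitochondrial decarboxylase that turns phosphatidylserine into phosphatidylethanolamine, also passed the fold limit. It measured 2313, 2586 and 2378 in *com2*Δ cells and 870.1, 1065 and 1386 in wild-type cells, a log2 fold change of 1.16 ± 0.21 (adjusted p = 0.018), and the call was lost without *com2*Δ replicate 2 (adjusted p = 0.112) and without wild-type replicate 1, where the difference fell below 2-fold. *CHO1*, the phosphatidylserine synthase of the step before, was higher by 0.85 ± 0.14 (adjusted p = 0.016). *CHO2*, which puts the first methyl group of S-adenosylmethionine on phosphatidylethanolamine, measured 12746, 11624 and 10786 in *com2*Δ cells and 7908, 8270.5 and 6207 in wild-type cells, with 0.66 ± 0.12 (adjusted p = 0.018). *OPI3*, which adds the remaining methyl groups, was not called (0.39 ± 0.13, adjusted p = 0.20). *ITR1*, the main inositol permease, and *CKI1*, the choline kinase, were at 0.75 ± 0.13 (adjusted p = 0.018) and 0.61 ± 0.13 (adjusted p = 0.049). *INO1*, which makes inositol phosphate and is the most regulated gene of the group, was at 0.02 ± 0.26 (adjusted p = 0.99). Its activator genes *INO2* and *INO4* and the repressor gene *OPI1* were not called, at 0.52, 0.17 and 0.87.

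**Figure D2:**
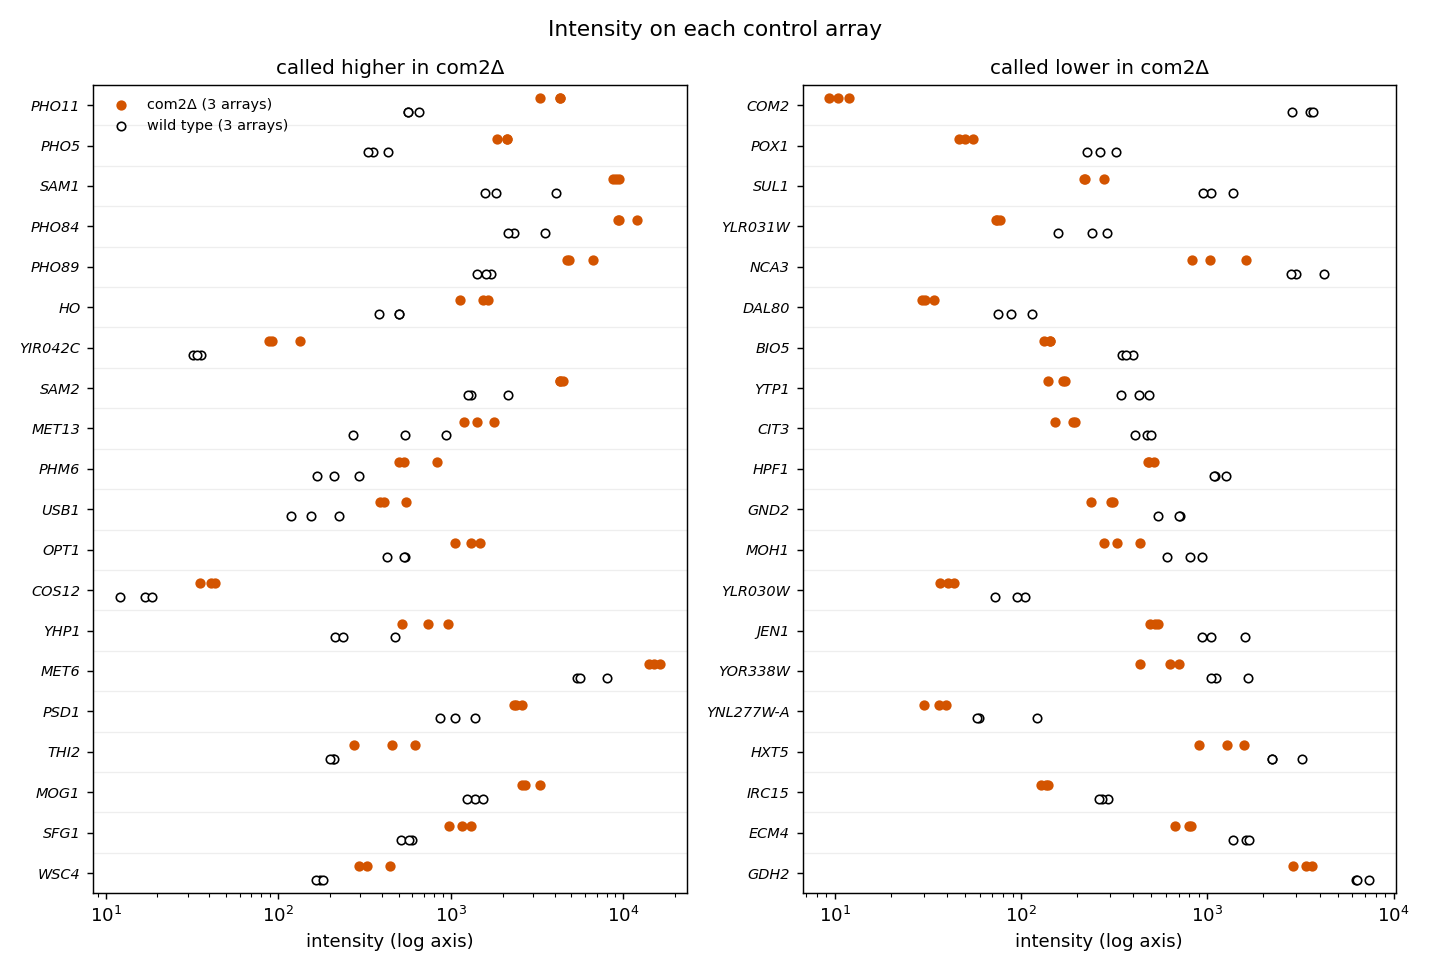
Intensity on each control array (x axis, log scale) for the 20 genes called higher (left) and the 20 called lower (right), with *com2*Δ arrays as filled and wild-type arrays as open circles, in order of the size of the log2 fold change. In no gene do the circles of the strains overlap, and the open circle nearest to the filled ones is often a single array, as in *SAM1*, where 4071 was measured on the third wild-type array.

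Sulfate uptake stood apart from organic sulfur. *SUL1*, the sulfate permease, measured 277, 221 and 217 in *com2*Δ cells and 1039.9, 949 and 1379 in wild-type cells, a log2 fold change of −2.22 ± 0.21 (adjusted p = 3.4e-04). *SUL2*, the other permease, measured 298, 295 and 345 in *com2*Δ cells and 440.5, 543 and 626 in wild-type cells, and passed the false discovery rate without reaching 2-fold (−0.77 ± 0.15, adjusted p = 0.037). All arrays of both genes were lower in *com2*Δ cells. The 8 other members of this list, the enzymes from sulfate to sulfide with their siroheme and phosphatase genes, were not called. Among them *MET3*, *MET14* and *MET16*, the enzymes of sulfate activation and reduction, were at −0.05, 0.04 and 0.29. The median of the 10 measured genes was −0.10. *MET2*, which makes O-acetylhomoserine, was at −0.85 ± 0.25 (adjusted p = 0.16).

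A permease gene of biotin synthesis and a regulator gene of nitrogen use were also lower, each alone in its list. *BIO5*, which takes up an intermediate of biotin synthesis, measured 132, 142 and 143 in *com2*Δ cells and 348, 399.9 and 365 in wild-type cells, with a log2 fold change of −1.41 ± 0.10 (adjusted p = 2.5e-05). The enzyme genes *BIO2*, *BIO3* and *BIO4* were at 0.28, −0.20 and −0.18 and not called. *DAL80*, a repressor of the GATA family that holds down genes for poor nitrogen sources, measured 29.3, 30.5 and 34.1 in *com2*Δ cells and 87.9, 74.96 and 114 in wild-type cells, with −1.54 ± 0.26 (adjusted p = 0.015). All of these values were below 152, the highest signal of the deleted genes. Of 23 measured genes for allantoin and other poor nitrogen sources no other was called, and the median was −0.09. *PUT1*, the proline oxidase, was just inside the false discovery rate and short of 2-fold, at −0.94 ± 0.22 (adjusted p = 0.080), with 544, 552 and 665 in *com2*Δ cells and 1015, 871 and 1589 in wild-type cells. The allantoin genes *DAL1*, *DAL2* and *DAL5* were at −0.43, 0.08 and −0.38. The calls of *SUL1*, *BIO5* and *DAL80* remained without any single control array.

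The genes of fatty acid use had mostly negative values, with a single call. *POX1*, the acyl-CoA oxidase that opens peroxisomal fatty acid oxidation, measured 50.03, 46.6 and 54.8 in *com2*Δ cells and 322, 227 and 265 in wild-type cells, the largest decrease after *COM2* itself (−2.41 ± 0.34, adjusted p = 0.0054). Of 17 measured peroxisomal genes it was the only member called, while 16 were negative, with a median of −0.41. In 11 of the 17 the strains did not overlap, with *com2*Δ lower, against 10.1% of all features. *FAA2*, which activates fatty acids, passed the false discovery rate at −0.81 ± 0.20 (adjusted p = 0.094). *POT1*, the thiolase, was at −0.88 ± 0.22 (adjusted p = 0.10) and *CTA1*, the peroxisomal catalase, at −0.56 ± 0.18 (adjusted p = 0.20), neither of them called. The dim *POX1* signal in *com2*Δ cells was below that of the deleted genes, as was that of *POT1* in both strains.

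In the list of gluconeogenesis, the glyoxylate cycle and acetate use, 2 of 17 measured members were called lower (0.353% of all features) and 14 were negative, with a median of −0.37. The strains did not overlap in 10 with *com2*Δ lower (10.1% of all features) and in 1 with *com2*Δ higher (7.39%). *CIT3*, a mitochondrial citrate and methylcitrate synthase, measured 189.6, 151 and 194 in *com2*Δ cells and 475, 407 and 495 in wild-type cells, with a log2 fold change of −1.37 ± 0.28 (adjusted p = 0.042). *JEN1*, the permease of lactate and pyruvate, measured 525, 492 and 544 in *com2*Δ cells and 1582, 1045 and 938 in wild-type cells, with −1.16 ± 0.23 (adjusted p = 0.035). Both calls were lost without *com2*Δ replicate 2 (adjusted p = 0.189 for *CIT3* and 0.16 for *JEN1*) and without wild-type replicate 1 (0.152 and 0.12 for the same genes). The activator genes of this group also passed the false discovery rate, *CAT8* at −0.73 ± 0.15 (adjusted p = 0.048) and *ADR1* at −0.60 ± 0.11 (adjusted p = 0.025), both under the fold limit. The key enzyme genes were not called, with −0.42 for *ICL1*, −0.74 for *MLS1*, −0.28 for *PCK1* and 0.01 for *FBP1*.

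Further metabolic genes among the lower calls belonged to nearby pathways. *GDH2*, the NAD-dependent glutamate dehydrogenase that releases ammonium from glutamate, was the brightest of them, at 3628, 3402 and 2892 in *com2*Δ cells and 7371, 6306 and 6320.0 in wild-type cells (−1.01 ± 0.14, adjusted p = 0.0054). *GND2*, the minor 6-phosphogluconate dehydrogenase, measured 311, 237 and 303 in *com2*Δ cells and 712, 545 and 701 in wild-type cells (−1.20 ± 0.26, adjusted p = 0.054). Its call was lost without each of the *com2*Δ replicates and without wild-type replicate 1 (adjusted p = 0.105 to 0.226). *HXT5*, a hexose transporter of slowly growing cells, measured 1564, 900.3 and 1275 in *com2*Δ cells and 3239, 2227 and 2228 in wild-type cells (−1.05 ± 0.26, adjusted p = 0.094). Of 13 measured hexose transporters it was the only member called, 12 were negative, and the median was −0.21. Its call was lost without *com2*Δ replicates 2 and 3 and without wild-type replicates 1 and 2 (adjusted p = 0.198 to 0.34). *ECM4*, a glutathione transferase, was at −1.03 ± 0.18 (adjusted p = 0.017), and its call was lost without *com2*Δ replicate 2 (adjusted p = 0.106) and, for the fold limit, without wild-type replicates 1 and 3. *GDH2* itself fell below 2-fold without *com2*Δ replicate 3 (−0.92) and without wild-type replicate 1 (−0.94).

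General stress genes were not called in either direction. None of 28 measured genes that Msn2 and Msn4 induce through the stress response element was called, while 26 had negative values, with a median of −0.36. In 7 of them the strains did not overlap, with *com2*Δ lower, against 10.1% of all features. *HSP12*, a membrane protein of stressed cells, measured 20533, 14137 and 14794 in *com2*Δ cells and 25781, 22069 and 16428 in wild-type cells (−0.37 ± 0.22, adjusted p = 0.51), *CTT1*, the cytosolic catalase, 959, 1163 and 1372 in *com2*Δ cells and 1281, 1300.5 and 1871 in wild-type cells (−0.34 ± 0.29, adjusted p = 0.68) and *HSP26*, a small heat shock protein, 1367, 1072 and 2456 in *com2*Δ cells and 2435, 2203 and 2834 in wild-type cells (−0.69 ± 0.32, adjusted p = 0.37). The arrays of the strains overlapped in these 3 genes. The 7 without overlap were *HSP104*, *DDR2*, *ALD3*, *UBI4*, *MSC1*, *RTN2* and *YGP1*, at −0.66 to −0.21. *HSP104*, the disaggregase, measured 7709, 9481 and 9744 in *com2*Δ cells and 11992, 13418 and 11965 in wild-type cells (−0.48 ± 0.20, adjusted p = 0.33). The lowest value of the list was that of *SIP18* (−1.15 ± 0.48, adjusted p = 0.32), whose arrays overlapped. *MSN2* was at 0.19 and *MSN4* at −0.07. Among the other related C2H2 regulator genes, *RPH1*, *GIS1*, *USV1* and *RGM1* were at −0.55, −0.13, −0.38 and −0.31, none of them called. *HAA1*, the regulator of weak acid response, was at 0.16, and none of 10 measured genes of its list was called (median −0.26). Of 18 heat shock chaperone genes 17 were negative, with a median of −0.28, and *HSP82* alone passed the false discovery rate (−0.81 ± 0.17, adjusted p = 0.048).

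**Figure D3:**
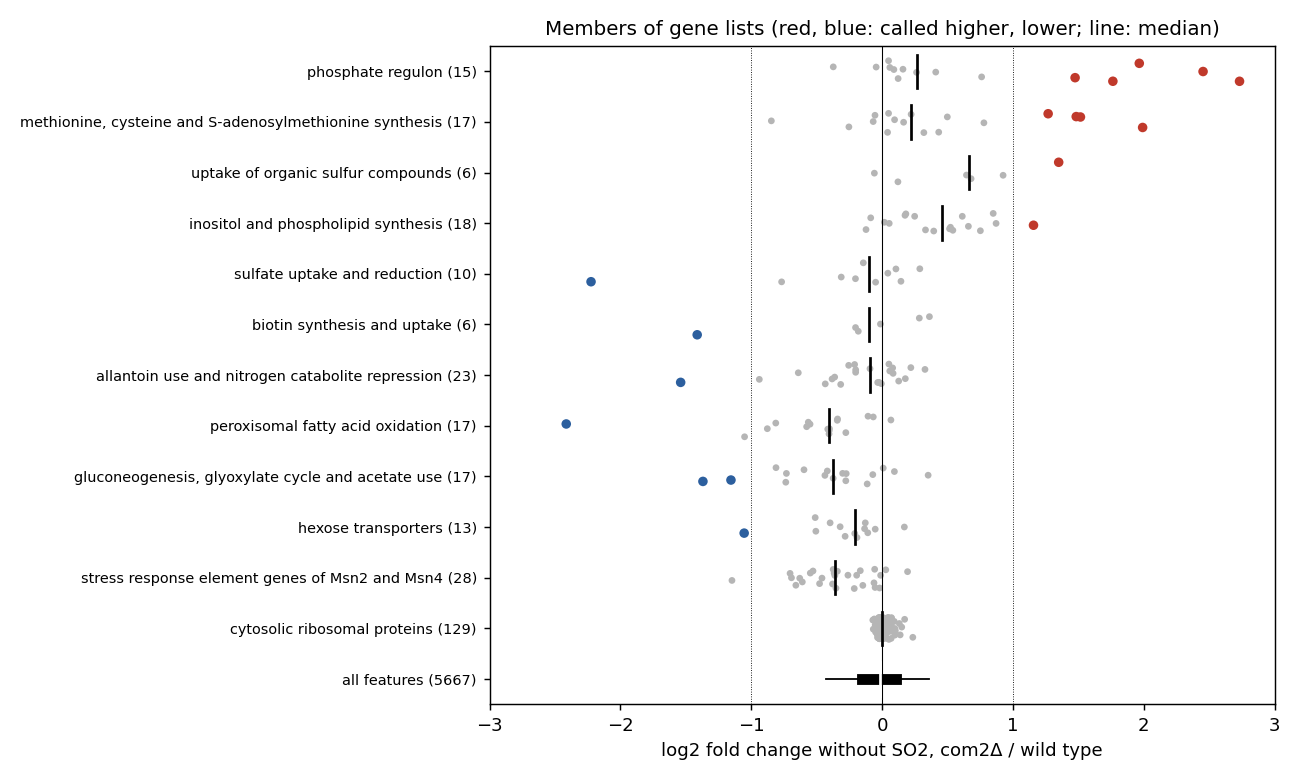
Each point is a member of the gene list named on the left (number of measured members in brackets), placed by its log2 fold change of *com2*Δ over wild-type cells without SO2; red and blue points were called higher and lower, and the short line is the median of the list. The lowest row gives all 5667 features, with the quartiles as a thick and the 5th to 95th percentiles as a thin bar. Medians ran from −0.41 for peroxisomal genes to 0.66 for uptake of organic sulfur, while ribosomal protein genes stayed within −0.07 and 0.23.

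The remaining higher genes shared no list. *HO*, the endonuclease gene of mating type switching that is expressed in late G1 of mother cells, measured 1639, 1548 and 1135 in *com2*Δ cells and 387, 504 and 502 in wild-type cells, a log2 fold change of 1.63 ± 0.27 (adjusted p = 0.014). No other of 16 genes of Swi5 and early G1 was called. *YHP1*, a homeobox repressor of genes between M and G1, measured 522, 738 and 965 in *com2*Δ cells and 214, 237 and 475 in wild-type cells (1.31 ± 0.30, adjusted p = 0.072), and its call was lost without *com2*Δ replicates 2 and 3 and without wild-type replicates 1 and 2 (adjusted p = 0.232 to 0.286). It was the only member called of the 17 measured G1/S genes, all of which were positive, with a median of 0.46. These genes also differed between the wild-type arrays, by a median of 0.97 for the third against the others, and the part of cell cycle stage in the strain difference was not tested. *USB1*, which trims the U6 spliceosomal RNA, measured 388, 409 and 547 in *com2*Δ cells and 118, 156 and 225 in wild-type cells (1.46 ± 0.24, adjusted p = 0.013). The gene next to it is *CKI1*, described above, which is read in the other direction.

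*MOG1*, a partner of the nuclear transport GTPase Gsp1, measured 2699.7, 2589.9 and 3276 in *com2*Δ cells and 1388, 1240.0 and 1529 in wild-type cells (1.04 ± 0.13, adjusted p = 0.0020). *WSC4*, a membrane protein of the family of cell wall sensors, measured 294, 328 and 442 in *com2*Δ cells and 176, 166 and 182 in wild-type cells, a log2 fold change of 1.003 ± 0.17 (adjusted p = 0.014). *SFG1*, a transcription factor of filamentous growth, measured 1158, 978 and 1307 in *com2*Δ cells and 598, 516 and 576 in wild-type cells, with 1.02 ± 0.14 (adjusted p = 0.0042). The groups did not overlap in these 3 genes, which lay at the fold limit, and each fell below it without *com2*Δ replicate 3 and without wild-type replicate 2. *THI2*, the activator of thiamine genes, measured 455, 618 and 274 in *com2*Δ cells and 209, 211 and 201 in wild-type cells (1.04 ± 0.26, adjusted p = 0.094), with the *com2*Δ arrays far apart. Its call was lost without *com2*Δ replicates 1 and 2 and without wild-type replicates 1 and 2 (adjusted p = 0.194 to 0.299), and none of the 11 other thiamine and pyridoxine genes measured was called. YIR042C, a gene of unknown function, measured 88.4, 91.6 and 134 in *com2*Δ cells and 31.9, 35.96 and 33.8 in wild-type cells (1.60 ± 0.18, adjusted p = 0.0012), and *COS12*, of a subtelomeric family of membrane proteins, 42.9, 40.6 and 35.2 in *com2*Δ cells and 16.9, 18.6 and 12.1 in wild-type cells (1.34 ± 0.23, adjusted p = 0.015). Both were dim.

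Of the remaining lower genes, *NCA3* was among the brightest, at 1617, 826 and 1033 in *com2*Δ cells and 4216, 2986 and 2807 in wild-type cells (−1.56 ± 0.22, adjusted p = 0.0054). It encodes a protein of the SUN family linked to mitochondrial ATP synthase and the cell wall. *HPF1*, a cell wall mannoprotein known from wine for lowering haze, measured 479.7, 519 and 488 in *com2*Δ cells and 1265, 1102 and 1091 in wild-type cells (−1.22 ± 0.22, adjusted p = 0.023), and its call was lost without wild-type replicate 1 (adjusted p = 0.103). *YTP1*, a membrane protein of unknown function, measured 168, 139 and 172 in *com2*Δ cells and 489, 431 and 345 in wild-type cells (−1.39 ± 0.18, adjusted p = 0.0029). *IRC15*, a protein of microtubules, was at −1.04 ± 0.11 (adjusted p = 6.6e-04) and just short of 2-fold without wild-type replicate 1 (−0.99). Neighbouring genes of unknown function, YLR030W and YLR031W, were both lower, at −1.16 ± 0.20 (adjusted p = 0.017) and −1.57 ± 0.27 (adjusted p = 0.016), with 73.6, 73.8 and 76.99 in *com2*Δ cells and 289.6, 241 and 158 in wild-type cells for YLR031W. The call of YLR030W was lost without *com2*Δ replicate 2 (adjusted p = 0.106), with 16 added to each intensity (−0.91) and after quantile normalization (−0.90).

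*MOH1*, YOR338W and YNL277W-A, with no well-defined function, were at −1.17 ± 0.28 (adjusted p = 0.085), −1.10 ± 0.26 (adjusted p = 0.085) and −1.10 ± 0.26 (adjusted p = 0.084). Their calls were lost in 4 or 5 of the 6 fits that leave out a control array (adjusted p = 0.10009 to 0.321). YNL277W-A measured 29.9, 39.5 and 36.2 in *com2*Δ cells and 122, 59.3 and 58.2 in wild-type cells, and without wild-type replicate 1, the highest, its log2 fold change was −0.75.

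Lists of growth and synthesis held no call. None of 129 cytosolic ribosomal protein genes was called, with a median of 0.00 and values from −0.07 to 0.23, and none of 31 genes of ribosome biogenesis (median −0.12). No call was made among 24 genes of the respiratory chain (median −0.11), 9 histone genes (0.25), 12 genes of G2/M (0.38, all positive), 20 genes of thiol redox (0.07), 16 genes of iron uptake (−0.09), 10 genes of zinc uptake (0.07) or 16 genes of meiosis (−0.09). The same held for synthesis of lysine (9 genes, 0.04), arginine (13 genes, 0.01), branched chain amino acids (11 genes, 0.01) and purines and histidine (15 genes, 0.12). The genes on either side of *COM2*, *SAK1* and *RPS26B*, were not called, at −0.13 ± 0.15 (adjusted p = 0.79) and 0.07 ± 0.07 (adjusted p = 0.76).

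Called genes were spread over the genome. They lay on 14 of 16 chromosomes, and the median log2 fold change of a chromosome ran from −0.03 to 0.03. *SUL1* and *PHO89*, which moved in opposite directions, are separated by a single gene, *PCA1*, which was not called (0.04). Among the 112 features that passed the false discovery rate at any fold, 4 pairs were direct neighbours, YLR030W with YLR031W, *USB1* with *CKI1*, *MXR1* with *SAH1* and *ASG7* with *SET2*, and the members of each pair had the same sign. The nearest genes inside the fold limit were *WSC4* (1.003), *GDH2* (−1.01), *SFG1* (1.02), *ECM4* (−1.03) and *IRC15* (−1.04). The nearest outside it with a passing false discovery rate were *SEO1* (−0.97), *AIM20* (0.96), *PUT1* (−0.94), *MUP1* (0.92) and YGR126W (−0.92).

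The 40 genes were then followed in the 6 arrays with 0.5 mM SO2. The intensities of these arrays are not part of the control difference, but they shared its fit and its estimate of the spread, so that leaving out 1 of them gave 17 to 20 genes called higher and 16 to 27 called lower without SO2. Of the 20 higher genes, 6 were also called higher in *com2*Δ cells with SO2 (background 7.62% of features), 5 were called lower (10.04%) and 9 were not called, with a median of −0.04. The 6 were *PHO11*, *PHO84*, *PHO89*, *PHM6*, YIR042C and *COS12*. *PHO84* measured 6784, 9355 and 8795 in *com2*Δ cells with SO2 and 1311, 1493 and 1176 in wild-type cells with SO2, a log2 fold change of 2.64 ± 0.20, and *PHO89* was at 2.73 ± 0.20. *PHO5* was higher in *com2*Δ cells by 0.83 ± 0.14 (adjusted p = 3.8e-04) and not called there, since it missed the fold limit.

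The 5 that were called lower in *com2*Δ cells with SO2 were *SAM2*, *MET13*, *OPT1*, *YHP1* and *PSD1*. *SAM2* measured 5303, 8099.8 and 4573 in *com2*Δ cells with SO2 and 15319, 13131 and 14971 in wild-type cells with SO2 (−1.31 ± 0.22). *MET13* measured 938, 1019 and 1159 in *com2*Δ cells with SO2 and 8915, 8273 and 7754 in wild-type cells with SO2 (−3.004 ± 0.34). In this gene the arrays with SO2 lay below those without it in *com2*Δ cells and above them in wild-type cells. *YHP1* lay at the fold limit (−1.001). *SAM1* was not called with SO2, at −0.46 ± 0.29 (adjusted p = 0.185). *MET6* passed the false discovery rate there and missed only the fold limit, at −0.80 ± 0.14 (adjusted p = 4.0e-04).

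Of the 20 lower genes, 8 were also called lower with SO2 (background 10.04% of features), 2 were called higher (7.62%) and 10 were not called, with a median of −0.44. The 8 were *COM2*, which the mutant lacks in either condition, and *SUL1*, *DAL80*, *BIO5*, YNL277W-A, *HXT5*, *IRC15* and *GDH2*. *SUL1* measured 112, 69.99 and 124 in *com2*Δ cells with SO2 and 11839, 13068 and 13596 in wild-type cells with SO2 (−7.01 ± 0.21), and *BIO5* 348, 355 and 318 in *com2*Δ cells with SO2 and 12870.2, 15877 and 13879 in wild-type cells with SO2 (−5.38 ± 0.10). In both genes the wild-type arrays with SO2 were brighter than all arrays without it, and the strains were further apart. *NCA3* and *GND2* had changed sides, at 1.25 ± 0.22 and 2.95 ± 0.26. *POX1*, *CIT3* and *JEN1* were not called with SO2, at −0.42 ± 0.34, 0.69 ± 0.28 and −0.09 ± 0.23.

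**Figure D4:**
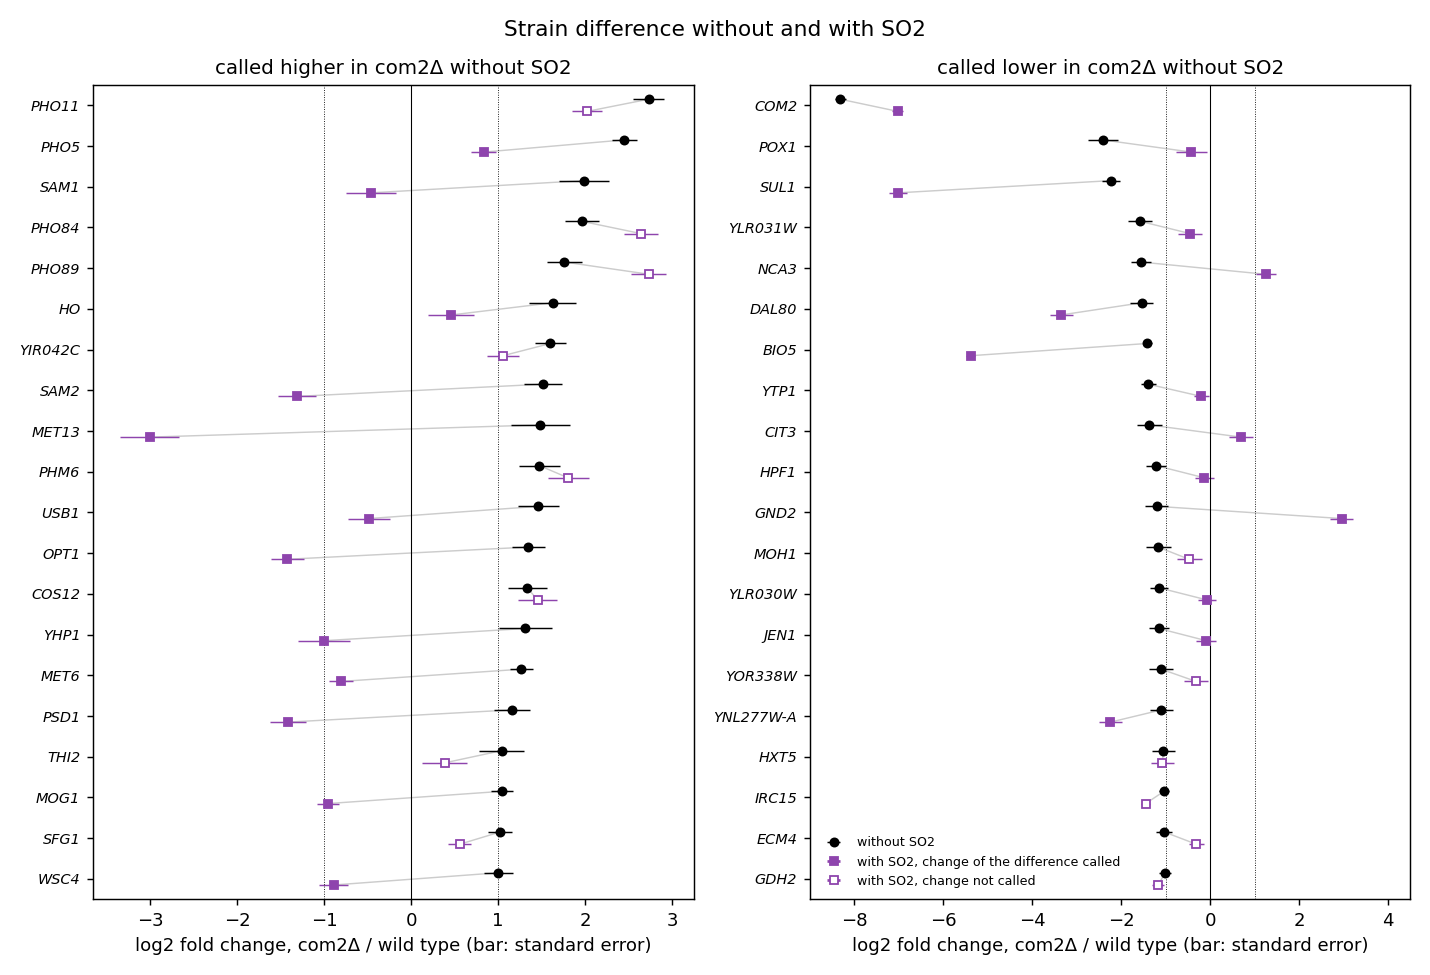
Log2 fold change of *com2*Δ over wild-type cells (x axis, bar: standard error of the fit) for the genes called higher (left) and lower (right) without SO2, shown without SO2 (black circles) and with 0.5 mM SO2 (purple squares). Squares are filled where the change of the strain difference was itself called. Phosphate transporters keep their side, the genes of methionine and S-adenosylmethionine move from the right to the left of 0, and *SUL1* and *BIO5* move further left.

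The change of the strain difference with SO2, tested as an interaction in the same fit, was called for 12 of the 20 higher and 14 of the 20 lower genes, against 17.5% of all features. Since the control difference is a part of this measure and also chose the genes, values against that difference are to some extent fixed by the choice. All 12 of the higher genes and 10 of the lower ones, *COM2* included, moved against their difference without SO2. The other 4, *SUL1*, *BIO5*, *DAL80* and YNL277W-A, moved further in its direction.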

How the data were processed

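RNA from *com2*Δ and wild-type cells had been hybridized to 12 arrays, 3 biological replicates in each of 4 groups. The authors deposited a table of intensity values, linear and never below 1, for 5716 probe sets. According to the methods, arrays were normalized to an invariant set with expression indices in dChip, while the submitters' processing notes name MAS5. The methods also give another number of arrays and another labelling kit than the labels. Detection calls were not used here. Array medians were 1673 to 1868, and no further scaling was applied. Probe sets were named through the platform annotation (5498 with 1 gene, 0 with several, 218 with none, 12 symbols updated). For 47 genes the brightest of several probe sets was kept, which left 5449 named genes in 5667 features. RefSeq's gene table (assembly R64) gave the order of genes.

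Log2 intensities of all 12 arrays were fitted with limma 3.58.1 in R 4.3.3, with 1 mean per group (8 residual and 3.24 prior degrees of freedom). Standard errors are those of the fit. The number of arrays limits the precision. The code of the test was checked on simulated data with independent noise on each array. Those data held no arrays that deviate together and no changes as small as 2-fold, so they do not bear on such calls. Python 3.11.15 with pandas 2.3.3, numpy 2.4.6 and matplotlib 3.10.9 served for tables and figures. Named genes were all that were called, members of the gene lists, the nearest genes around the fold limit and neighbours of called genes. The members and lists were chosen with earlier results of these data known. Alternatives were quantile normalization, an offset of 16 on the intensities, centring on the median, leaving out each array, filters on dim features, the 6 control arrays alone, trend and robust variances, array weights, the replicate number as a block, and other thresholds. No sequences were used, and coordinates served only to place genes in order along chromosomes.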

Additional observations from a re-analysis of the deposited data

Results flagged for a closer look

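The strain difference with SO2 differed from that without SO2, by the test of the interaction, in 26 of the 40 genes called without SO2. The values are the log2 fold change of *com2*Δ over wild-type cells with SO2 minus that without SO2. Of the genes that were higher in *com2*Δ cells without SO2, the change was −4.49 for *MET13*, −2.83 for *SAM2*, −2.77 for *OPT1*, −2.58 for *PSD1*, −2.45 for *SAM1*, −2.32 for *YHP1*, −2.07 for *MET6*, −1.995 for *MOG1*, −1.95 for *USB1*, −1.89 for *WSC4*, −1.62 for *PHO5* and −1.17 for *HO*. Of the genes that were lower in *com2*Δ cells without SO2, it was −4.79 for *SUL1*, −3.97 for *BIO5*, −1.81 for *DAL80* and −1.14 for YNL277W-A, all of which moved further down, and 1.07 for *JEN1*, 1.09 for *HPF1*, 1.09 for YLR030W, 1.12 for YLR031W, 1.19 for *YTP1*, 1.30 for *COM2*, 1.99 for *POX1*, 2.06 for *CIT3*, 2.81 for *NCA3* and 4.16 for *GND2*, which moved up. In *COM2* the change rests on signals of 19.2, 20.3 and 19.1 in *com2*Δ cells with SO2 and 9.35, 10.3 and 11.96 in *com2*Δ cells without it, below the signal of the deleted genes.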

How the results depend on the processing

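No called gene changed direction under any alternative. Without the fold limit and at a false discovery rate of 5%, 35 genes were higher and 31 lower in *com2*Δ cells. With no adjustment of p-values, 32 were lower. Array weights, whose estimate did not fully converge and which gave the second *com2*Δ control array a weight of 14 and the third wild-type control array one of 0.151, called 36 higher and 58 lower. Leaving out the 25% dimmest features left 1 lower gene, since 19 of the 20 were no longer tested, a ranking by all 12 arrays that the difference itself enters. Over the fits that leave out 1 array, the third wild-type array gave the largest counts, and the range was 14 to 37 genes higher and 9 to 37 lower. The genes also called with SO2 in the same direction (14, the deleted *COM2* among them) numbered 9 after quantile normalization and 4 without the dimmest features. They numbered 25 at a false discovery rate of 5% with no fold limit and 10 to 24 with 1 array left out. The genes with a called change of the difference (26) numbered 10, 72 and 54 without the dimmest features, with array weights and at a false discovery rate of 5% with no fold limit, and 18 to 49 with 1 array left out. Lower genes of gluconeogenesis (2) numbered 0 without the dimmest features, 4 at a false discovery rate of 5% with no fold limit and 0 to 2 with 1 array left out. Higher phosphate genes numbered 5 in each such fit and higher methionine genes 3 to 4. Quantile normalization and median centring moved the median of all features to 0.00 and −0.01. With 16 added to each intensity 7 calls were lost, those of *COS12* (0.80), YLR030W, YNL277W-A, *IRC15* (−0.96), *WSC4*, *SFG1* and *THI2*. After quantile normalization 4 were lost, those of YLR030W, YNL277W-A, *IRC15* (−0.83) and *GDH2*.

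Of the 40 calls, 9 held under all 21 settings, *PHO5*, *PHO11*, *PHO84*, *PHO89*, *SAM1*, *SAM2*, *MET6*, *OPT1* and *HO*. The intensity limits leave dim genes untested, and 20 calls held in every setting that tested the gene, these 9 with *COM2*, *POX1*, *SUL1*, YLR031W, *NCA3*, *DAL80*, *BIO5*, *YTP1*, *USB1*, *PHM6* and YIR042C. The limit set by the deleted genes used the mean over all 12 arrays. *COM2* passed it through its wild-type arrays, and *DAL80* through its wild-type arrays with SO2 alone (1530, 1089 and 2145). *POX1*, YLR031W and *BIO5* also averaged under the deleted genes in *com2*Δ control cells (50.5, 74.8 and 139) and passed through their other arrays. Passing this limit is thus no support for the control difference of these 5 genes. Replicates with the same number in both strains shared deviations with r of 0.35, 0.24 and 0.10, the last just under the limit set for a pairing, though each array correlated best with its own number. With the replicate number as a block 38 calls were kept, with 20 genes higher and 19 lower, and *MOH1* (adjusted p = 0.11) and YNL277W-A (adjusted p = 0.106) were lost. Leaving out the SO2 arrays in turn was added after seeing the data.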

Other observations

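Genes of a cells and of mitosis gave a few further values. Of 7 genes specific to a cells, 2 passed the false discovery rate below the fold limit in *com2*Δ cells without SO2, *ASG7* at 0.88 ± 0.20 (adjusted p = 0.064) and *AGA2*, the binding subunit of the a-agglutinin, at 0.48 ± 0.10 (adjusted p = 0.048). Over all features, 0.882% passed it at any fold with *com2*Δ higher. The receptor gene *STE2* and the pheromone genes *MFA1* and *MFA2* were at 0.02, 0.04 and 0.07. In the list of G2/M genes, *CLB1*, a mitotic cyclin, passed the false discovery rate at 0.78 ± 0.13 (adjusted p = 0.016), and *CLB2* was at 0.57 ± 0.21 (adjusted p = 0.24). *MXR1*, the methionine sulfoxide reductase, was higher by 0.69 ± 0.11 (adjusted p = 0.012), measuring 2236, 2046 and 2572 in *com2*Δ cells and 1536, 1425 and 1274 in wild-type cells.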
